A study of Mus musculus with 8 samples.

Results

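The interferon regulatory factors (Irfs) are transcription factors that switch on interferon genes and the genes that respond to interferon. Open chromatin was examined at 8 of them, Irf1, Irf2, Irf3, Irf4, Irf5, Irf7, Irf8 and Irf9, out of 21900 protein-coding mouse genes with a position. A window was the gene and 20 kb on either side in the mouse build GRCm38, and every peak that touched a window was counted. Peaks were merged across lists into regions wherever they overlapped by 1 bp or more, and 86 of 189914 regions touched these windows. Several peaks of a list in 1 region each counted as a peak.

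Accessible DNA was mapped by ATAC-seq (a transposase cuts open chromatin and leaves sequencing adapters) in retinal ganglion cells (RGCs) of adult C57BL/6J mice of both sexes. All mice had a virus (AAV2) injected into the eye, had the optic nerve crushed (ONC) 2 weeks later and had RGCs sorted for CD90.2 after another 3 days, with 50000 cells per library. The control virus carried GFP (3 samples), and the others carried Ezh2 (3 samples) or Ezh2-Y726D (2 samples). Ezh2 is the histone methyltransferase of Polycomb repressive complex PRC2, and Ezh2-Y726D is its form without catalytic activity. There was no uninjured group and no group without virus. The labels do not say whether samples of a group came from separate mice, so p-values measure the spread between these samples.

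Irf3 and Irf7 lie downstream of nucleic acid sensors and, once phosphorylated, turn on interferon genes. Irf9 is the DNA-binding part of the complex that carries the type I interferon signal to interferon-stimulated response elements (ISREs). Irf1 is induced by interferon gamma, whose response genes often carry GAS elements, and Irf2 binds many of the same sites as Irf1 and often opposes it. Irf5 acts in Toll-like receptor signaling, mostly in myeloid cells and B cells. Irf4 and Irf8 are used mainly by leukocytes, Irf4 in lymphocytes and dendritic cells and Irf8 in microglia, macrophages, dendritic cells and B cells.

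The 250 bases before the first annotated start site of Irf8, Irf1, Irf2 and Irf4 are printed from RefSeq on GRCm38.p6, 5′ to 3′, because the first 3 held a letter match to a GAS or ISRE motif and Irf4, the other leukocyte gene, held none. Capitals mark the matches. They are chr8:120736108-120736357, chr11:53769764-53770013, chr8:46739495-46739744 and chr13:30748983-30749232, all on the plus strand.
Irf8: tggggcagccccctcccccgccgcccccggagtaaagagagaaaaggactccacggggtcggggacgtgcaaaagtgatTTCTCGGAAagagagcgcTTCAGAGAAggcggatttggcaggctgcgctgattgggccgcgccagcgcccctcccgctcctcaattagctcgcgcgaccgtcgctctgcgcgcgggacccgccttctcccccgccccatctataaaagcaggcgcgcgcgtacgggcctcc
Irf1: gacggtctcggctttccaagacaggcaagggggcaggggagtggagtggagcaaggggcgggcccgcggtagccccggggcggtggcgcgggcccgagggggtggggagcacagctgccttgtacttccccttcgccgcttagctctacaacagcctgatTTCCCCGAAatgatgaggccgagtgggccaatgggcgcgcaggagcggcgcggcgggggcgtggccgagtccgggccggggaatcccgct
Irf2: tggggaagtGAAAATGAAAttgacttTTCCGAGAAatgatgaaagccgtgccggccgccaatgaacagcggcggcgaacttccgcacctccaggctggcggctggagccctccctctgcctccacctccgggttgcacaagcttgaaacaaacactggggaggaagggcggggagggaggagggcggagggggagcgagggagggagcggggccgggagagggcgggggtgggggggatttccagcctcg
Irf4: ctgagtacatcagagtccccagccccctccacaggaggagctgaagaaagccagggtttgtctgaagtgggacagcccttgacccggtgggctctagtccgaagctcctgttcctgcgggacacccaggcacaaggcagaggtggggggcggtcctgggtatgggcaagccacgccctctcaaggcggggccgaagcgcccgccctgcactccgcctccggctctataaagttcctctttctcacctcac
The GAS letters were TTCNNNGAA and the ISRE letters were GAAANNGAAA, both searched on both strands. Irf8 held 2 GAS matches, TTCTCGGAA and TTCAGAGAA, and Irf1 held TTCCCCGAA. Irf2 held the GAS match TTCCGAGAA and the ISRE match GAAAATGAAA, which did not overlap. The same stretch of Irf3, Irf4, Irf5, Irf7 and Irf9 held no match to either. Of 32851 mouse promoters of this length, 7.02% held the GAS letters and 2.98% the ISRE letters. A letter match is a description and not a site of binding.

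The start sites were open in every library. All 8 members had a peak over their first start site in all 8 lists. A peak's fold, the height of its summit over the local background of its own library, was ranked within its list, and the percentile of that rank was compared, with 100 for the highest peak. Irf3 and Irf9 had the highest GFP percentiles among the members, 95.2 ± 1.01 (SD, n = 3) and 92.0 ± 2.2, and Irf3 shares its start region with Bcl2l12. Irf8 was close behind at 88.2 ± 2.11 and Irf1 stood at 81.0 ± 3.71. Irf7 was at 71.9 ± 2.82, Irf4 at 62.5 ± 12.3, Irf2 at 54.6 ± 0.681 and Irf5 at 42.0 ± 6.12. Neighbours in this order whose GFP libraries overlapped were Irf3 and Irf9, Irf7 and Irf4, and Irf4 and Irf2. The leukocyte gene Irf8 thus stood between the broadly used Irf9 and Irf1, and Irf4 was not separated from Irf7 or Irf2. Irf8 has another annotated start at chr8:120738639, and no list had a peak there.

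Between groups the start regions kept their peaks, and by rank 1 of the 8, that of Irf1, was called, in 1 comparison. At Irf8 the percentiles were 90.2, 88.5 and 86.0 with GFP, 82.8, 84.8 and 84.2 with Ezh2, and 91.3 and 95.4 with Ezh2-Y726D. The Ezh2 libraries were below and the Ezh2-Y726D libraries above every GFP library. At Irf4 they were 66.1, 48.8 and 72.5 with GFP, 55.0, 39.9 and 55.8 with Ezh2, and 46.6 and 68.2 with Ezh2-Y726D, and all groups overlapped. At Irf7 they were 68.7, 74.1 and 72.8 with GFP, 55.3, 63.9 and 60.3 with Ezh2, and 75.7 and 70.6 with Ezh2-Y726D. The Ezh2 libraries were the lowest there.

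The mean percentile of the start region was lower with Ezh2 than with GFP at 8 of 8 members, and at 52.4% of 11781 start regions that had a peak in all 8 lists. At Irf3, Irf7 and Irf8, 3 of the 8, every Ezh2 library was below every GFP library, as it was at 12.4% of those start regions, while 0 of the 8 were higher in every library (9.6% of all). Ezh2-Y726D was above GFP in every library at Irf1, Irf5 and Irf8 (3 of 8, against 11.8% of all start regions) and below it at Irf2 (1 of 8, against 27.1%). Ezh2 was below Ezh2-Y726D in every library at 5 of 8, Irf1, Irf5, Irf7, Irf8 and Irf9 (16.8% of all), and above it at 0 of 8 (29.5% of all). These counts are descriptions of 8 genes.

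**Figure D1:**
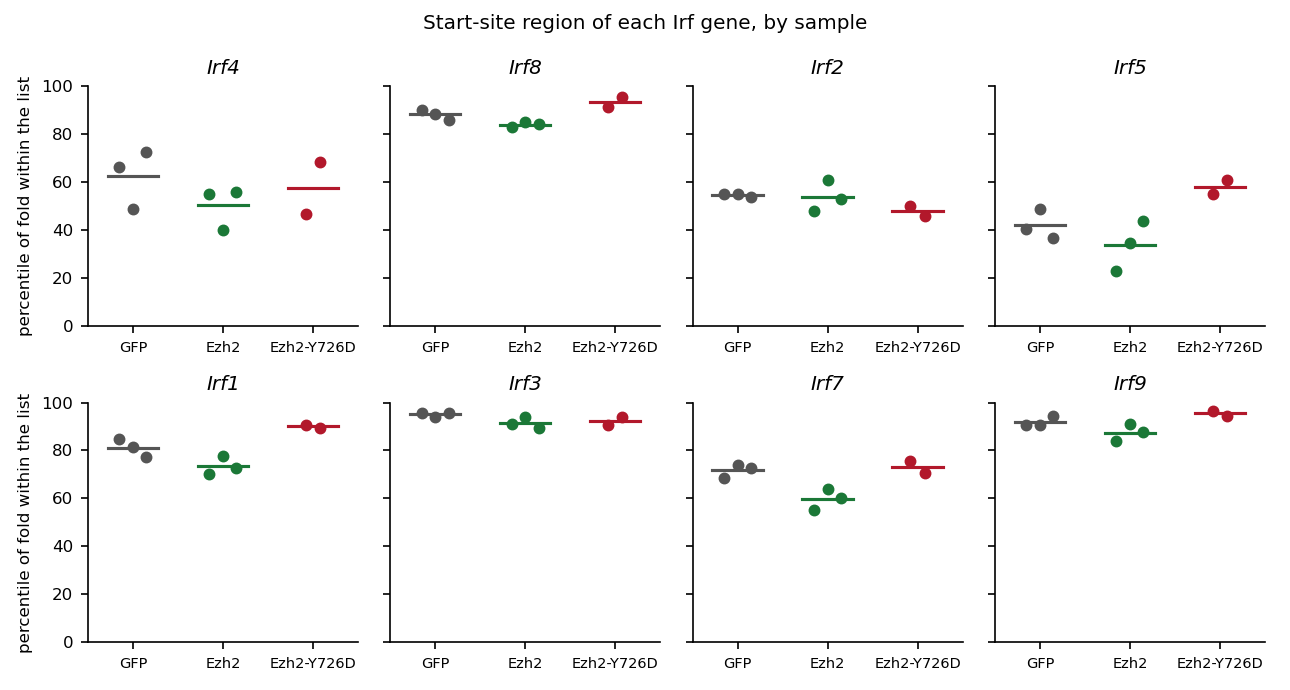
Percentile of fold within the list (vertical axis, 0 to 100) of the start-site region of each member in the GFP, Ezh2 and Ezh2-Y726D libraries; each point is a library and each line a group mean. Every library has a point for every gene, and for Irf8 the Ezh2 points lie from 82.8 to 84.8 and the Ezh2-Y726D points at 91.3 and 95.4.

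Over the whole windows, peaks were fewer with Ezh2-Y726D. The 8 windows together held 60, 55 and 64 peaks with GFP, 66, 64 and 67 with Ezh2, and 41 and 46 with Ezh2-Y726D. Both Ezh2-Y726D libraries were below all others, although their lists were of middle length (124666 and 128728 peaks, against 112939 to 135895 over all lists). The mean with Ezh2-Y726D was 43.5 ± 3.54 (SD, n = 2), against 59.7 ± 4.51 (n = 3) with GFP and 65.7 ± 1.53 (n = 3) with Ezh2. Ezh2-Y726D minus GFP was −16.2 peaks and Ezh2 minus Ezh2-Y726D was 22.2, and the two-sided exact permutation test gave p = 0.1 for each, the smallest p that 3 against 3 or 2 against 3 samples can reach. Ezh2 exceeded GFP by 6.0 peaks (exact permutation p = 0.2), with overlapping groups. With −log10 q of at least 5, Ezh2-Y726D minus GFP was −11.0 and Ezh2 minus Ezh2-Y726D was 16.7. Without flanks these differences were −3.83 and 5.17. In both settings the exact permutation p was 0.2 for the former and 0.1 for the latter.

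Irf8, which microglia and macrophages need, had no peak in its flanks in either Ezh2-Y726D library. Its window held 7, 6 and 9 peaks with GFP, 9, 6 and 9 with Ezh2, and 1 and 2 with Ezh2-Y726D. Both Ezh2-Y726D libraries were far below the lowest of the other 6. Ezh2-Y726D minus GFP was −5.83 peaks and Ezh2 minus Ezh2-Y726D was 6.5 (exact permutation p = 0.1 for each, 0.3 after Benjamini-Hochberg adjustment over 24 tests of genes). In 1 Ezh2-Y726D library the start-site peak was the only one, and the other library had a further peak inside the gene at 7.49 kb. With 60 kb on either side instead of 20 kb, the Irf8 window held 18, 17 and 25 peaks with GFP, 23, 19 and 22 with Ezh2, and 6 and 8 with Ezh2-Y726D. Within the gene alone it held 2, 2 and 4, then 1, 1 and 3, then 1 and 2, so the groups overlapped there and the difference lay in the flanks.

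Irf4, the other leukocyte gene, did not have fewer peaks in both Ezh2-Y726D libraries. Its window held 7, 7 and 6 peaks with GFP, 7, 9 and 7 with Ezh2, and 8 and 6 with Ezh2-Y726D, and the groups overlapped. Ezh2-Y726D minus GFP was 0.333 peaks (exact permutation p = 1.0), and 1 Ezh2-Y726D library was above and the other below the GFP mean. With 60 kb on either side the Irf4 window held 17, 15 and 17 peaks with GFP, 22, 21 and 20 with Ezh2, and 16 and 14 with Ezh2-Y726D, so the Ezh2 libraries were above all others there, while GFP and Ezh2-Y726D overlapped. The 2 leukocyte genes together had 14, 13 and 15 peaks with GFP, 16, 15 and 16 with Ezh2, and 9 and 8 with Ezh2-Y726D.

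The 6 other windows together also held fewer peaks with Ezh2-Y726D. They held 46, 42 and 49 peaks with GFP, 50, 49 and 51 with Ezh2, and 32 and 38 with Ezh2-Y726D, with a difference of −10.7 peaks from GFP and with 15 more peaks in Ezh2 than in Ezh2-Y726D (exact permutation p = 0.1 for each). With −log10 q of at least 5 the differences were −6.33 and 10.7 (exact permutation p = 0.3 and 0.1). Per peak of these 6, Irf4 and Irf8 together had 0.304, 0.31 and 0.306 peaks with GFP, 0.32, 0.306 and 0.314 with Ezh2, and 0.281 and 0.211 with Ezh2-Y726D. That ratio was lower in both Ezh2-Y726D libraries (−0.0608 for Ezh2-Y726D minus GFP and 0.0674 for Ezh2 minus Ezh2-Y726D, exact permutation p = 0.1 for each). With lists of equal length the groups overlapped (−0.0433 and 0.0626, exact permutation p = 0.4 and 0.3). With Irf5 counted among the leukocyte genes the differences were −0.143 and 0.118 (exact permutation p = 0.1 and 0.4). The ratio turned in direction when the flanks were left out, where it was higher in Ezh2-Y726D than GFP by 0.113 (exact permutation p = 0.1), so the direction of the split between Irf4 and Irf8 and the other 6 depended on the flanks.

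Among these 6, the numbers were lower in both Ezh2-Y726D libraries at Irf2 and Irf5. Irf2, the longest window at 147714 bp, held 20, 16 and 20 peaks with GFP, 19, 20 and 21 with Ezh2, and 8 and 14 with Ezh2-Y726D. The Ezh2-Y726D libraries were below all others and differed from each other by 6 peaks. Irf5 held 8, 9 and 10 with GFP, 11, 8 and 8 with Ezh2, and 6 and 5 with Ezh2-Y726D. Ezh2-Y726D minus GFP was −7.67 peaks for Irf2 and −3.5 for Irf5 (exact permutation p = 0.1 for each, adjusted p = 0.3). Within the gene alone, Irf5 held 4, 5 and 5, then 5, 4 and 4, then 4 and 3, and the groups overlapped. Irf2 held 14, 12 and 15, then 14, 16 and 16, then 8 and 11 there. Both Ezh2-Y726D libraries thus stayed below all others at Irf2 without flanks.

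The remaining 4 members did not have fewer peaks in both Ezh2-Y726D libraries within 20 kb. Irf1 held 7, 6 and 7 peaks with GFP, 6, 7 and 7 with Ezh2, and 5 and 7 with Ezh2-Y726D. With 60 kb on either side, Irf1 did separate, at 14, 15 and 17 with GFP, 16, 15 and 14 with Ezh2, and 8 and 10 with Ezh2-Y726D. Irf3 held 4, 4 and 5, then 5, 6 and 5, then 5 and 4 in the same order. Irf7 held 3 peaks in every GFP and Ezh2-Y726D library and 4, 3 and 4 with Ezh2. Within 20 kb these groups overlapped. Irf9 held 4 peaks in every GFP library, 5, 5 and 6 with Ezh2 and 5 in both Ezh2-Y726D libraries, so that it was the only member with more peaks in every Ezh2 and every Ezh2-Y726D library than in any GFP library (exact permutation p = 0.1 for each, adjusted p = 0.3). Its Ezh2-Y726D libraries held 4 peaks each, the same as GFP, with lists of equal length and with −log10 q of at least 5.

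Across 19306 protein-coding genes with a peak in their window, 14.3% had fewer peaks in every Ezh2-Y726D library than in any GFP library, against 3 of the 8 members (Irf2, Irf5 and Irf8). More peaks in every Ezh2-Y726D library were found for 9.16% of genes and 1 member (Irf9). With Ezh2 against Ezh2-Y726D, 24.7% of genes and 3 members (again Irf2, Irf5 and Irf8) had more in every library, and 8.59% of genes and 0 members had fewer. With Ezh2 against GFP, 9.54% of genes and 1 member (Irf9) had more, and 2.6% of genes and 0 members fewer.

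**Figure D2:**
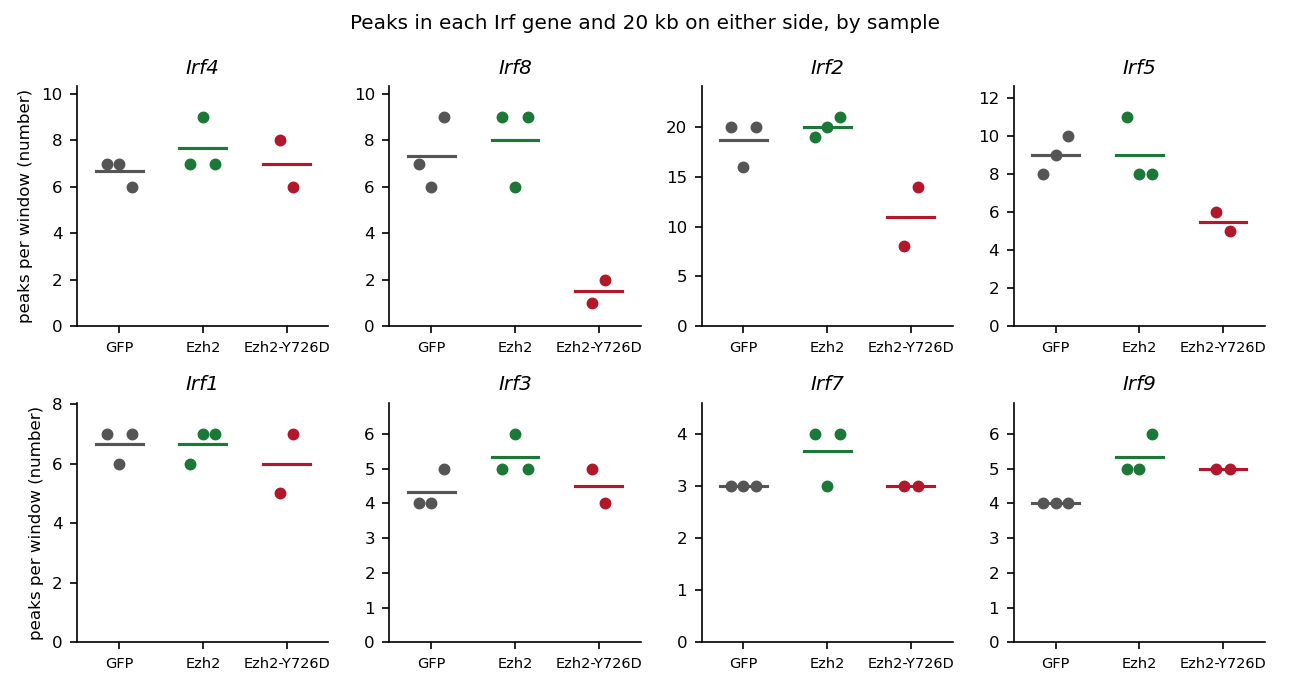
Number of peaks (vertical axis) in each gene and 20 kb on either side in the GFP, Ezh2 and Ezh2-Y726D libraries; each point is a library and each line a group mean. For Irf8 the Ezh2-Y726D points lie at 1 and 2 against 6 to 9 elsewhere, whereas for Irf4 the groups overlap between 6 and 9.

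The regions behind these numbers were called gained where every library of the first group had a peak and no library of the other did, and lost in the reverse case. In Ezh2-Y726D against GFP, 12 of the 86 regions (14.0%) were lost and 0 were gained, whereas over all 189914 regions 4.72% were lost and 4.77% gained. The 86 regions were shared between lists about as often as regions in general, with 33.7% in all 8 lists (36.6% of all regions) and 16.3% in 1 list only (17.2% of all). Of the 12, 9 lay outside the member's own gene, 3 inside it and 0 over a member's start site. All 12 had a peak in every Ezh2 library. Their percentiles ran from 1.83 to 69.5 with GFP and from 5.72 to 84.8 with Ezh2.

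Irf8 held 4 of the 12, all in its flanks. They lay at chr8:120715986-120716888 (−19.9 kb from the start site), chr8:120719750-120720209 (−16.4 kb), chr8:120724981-120726358 (−10.7 kb) and chr8:120758129-120758681 (22 kb, past the end of the gene). The region at −10.7 kb had percentiles of 13.8, 28.7 and 55.4 with GFP and of 58.6, 71.3 and 77.5 with Ezh2, with no peak in Ezh2-Y726D. Its 3 Ezh2 values were above its GFP values. The region at −19.9 kb had 41.3, 24.7 and 19.2 with GFP and 22.8, 48.9 and 20.9 with Ezh2, and those groups overlapped.

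Irf4 lost 1 region, at chr13:30738311-30738914 (−10.6 kb). Its percentiles were 44.3, 41.4 and 64.5 with GFP and 84.7, 65.2 and 84.8 with Ezh2. The Ezh2 values were again the higher, and no Ezh2-Y726D library had a peak. Inside the gene, Irf4 had 3 peaks in each GFP library, 3, 4 and 3 with Ezh2, and 6 and 4 with Ezh2-Y726D, so its total did not drop. Among these regions chr13:30750454-30750903 had a peak in 1 GFP, 2 Ezh2 and both Ezh2-Y726D libraries.

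Irf5 and Irf2 lost 3 regions each and Irf1 lost 1. For Irf5, 1 was chr6:29507423-29508071 (−18.9 kb), which covers the start sites of Kcp, a secreted modulator of bone morphogenetic protein signals, and of the transcript Gm26627. Its percentiles were 26.5, 28.7 and 48.0 with GFP and 39.2, 25.2 and 36.1 with Ezh2. The others were chr6:29524061-29524559 at −2.31 kb and chr6:29528461-29529474 inside Irf5 at 2.34 kb, with percentiles from 1.83 to 28.7 over both. For Irf2 they lay inside the gene at 38.7 kb and 49.8 kb (chr8:46778084-46778727 and chr8:46789109-46789923) and past its end at chr8:46859170-46860204. That last region stood at 69.3, 51.7 and 69.5 with GFP and 66.3, 81.7 and 80.6 with Ezh2. It was the highest of the 12 in GFP replicates 1 and 3. In GFP replicate 2 the Irf2 region at 49.8 kb was higher, at 56.0. The Irf1 region was chr11:53786132-53786989, inside the transcript Gm12216 at 16.5 kb.

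In Ezh2 against Ezh2-Y726D, the same 12 regions and 5 more were gained, 17 of 86 (19.8%, against 8.96% of all regions), and 2 were lost (2.33%, against 6.14%). The 5 more were 3 in the Irf2 window, 1 in the Irf1 window and 1 in the Irf7 window. The 2 lost were chr11:53761827-53762280 upstream of Irf1 and chr8:46828947-46829683 inside Irf2, within 1 kb of the start site of the transcript Gm39170. In Ezh2 against GFP, 2 regions were gained (2.33%, against 2.72% of all) and 2 lost (2.33%, against 1.68%), so the share was near that of all regions. The gained regions lay within the neighbouring genes Phrf1 (Irf7 window, chr7:141250768-141251261) and Ipo4 (Irf9 window, chr14:55629372-55629697). The lost ones were the region upstream of Irf1 and chr7:141281491-141281878 in the Irf7 window. Without Ezh2-Y726D replicate 2, 19 of 83 regions were lost against GFP, and without Ezh2 replicate 3, 8 of 86 differed between Ezh2 and GFP. With a library fewer the rule is easier to meet for any region, and the shares of all regions in these settings are not given.

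**Figure D3:**
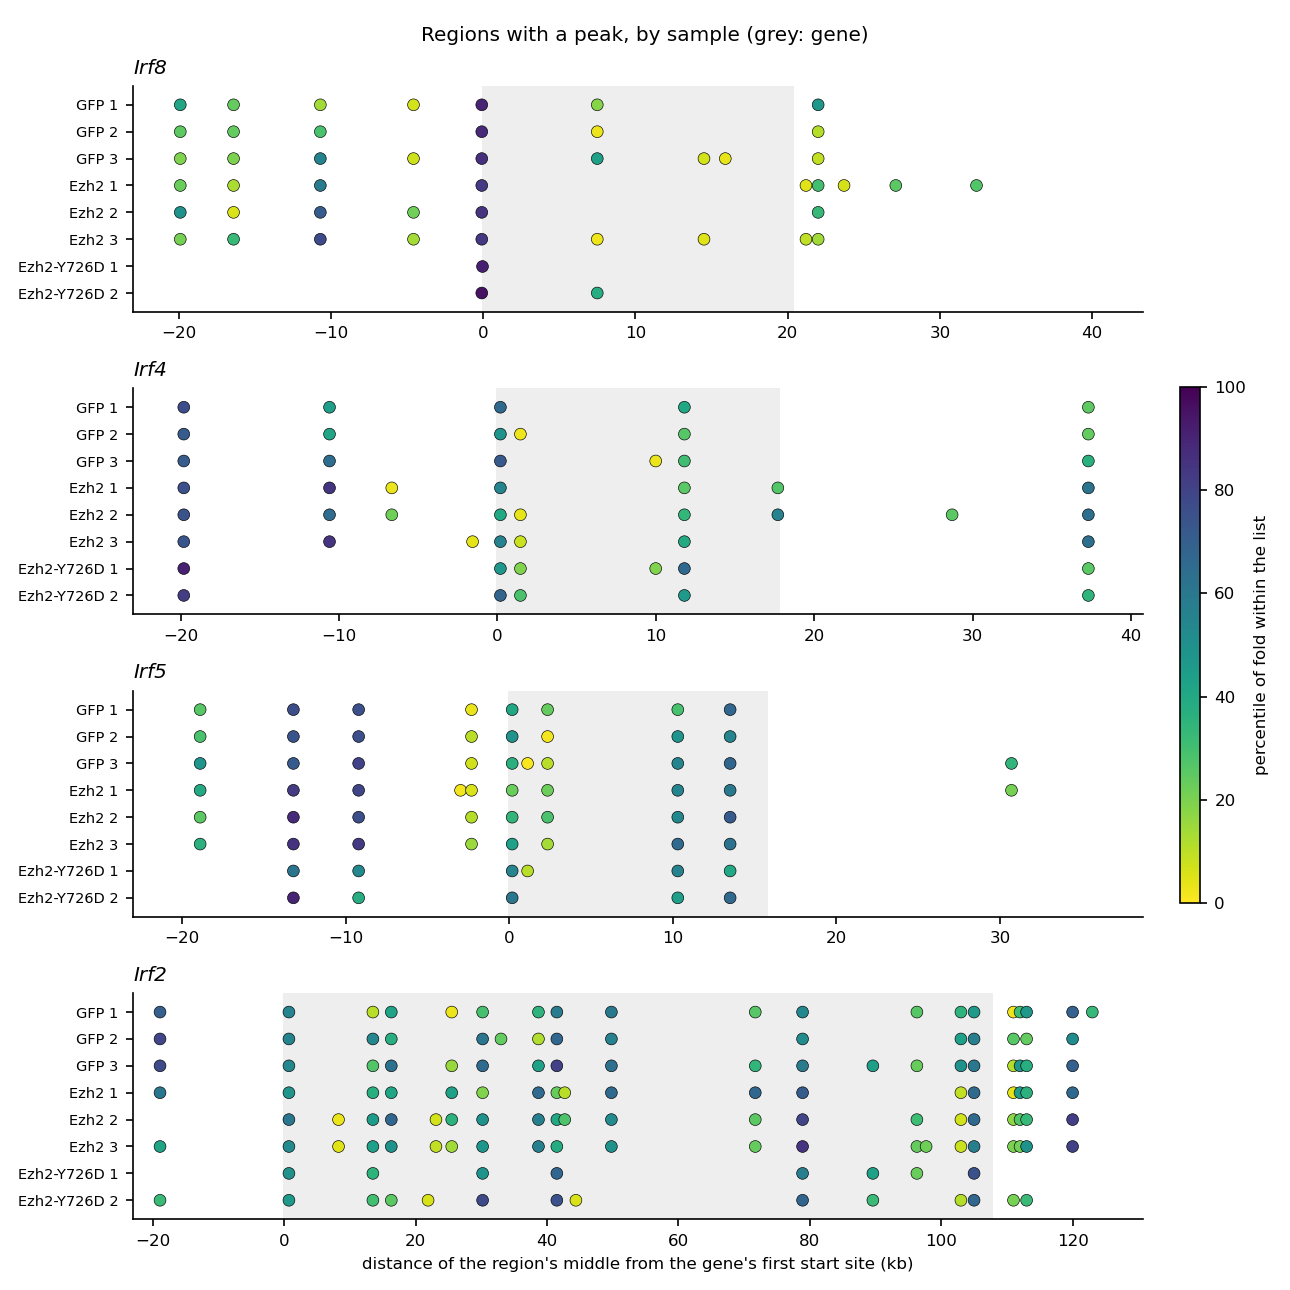
Regions with a peak in each library (rows) by the distance of the region's middle from the first start site in kb (horizontal axis) for Irf8, Irf4, Irf5 and Irf2, with the gene in grey and the percentile of fold within the list as color. Below the Ezh2 rows, the Irf8 flanks are empty in both Ezh2-Y726D libraries, whereas the start-site region stays at 91.3 and 95.4.

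Regions with a peak in all 8 lists were also compared by rank. The rank of their fold within each list was converted to a normal score, and limma was fitted to these scores over all 69493 such regions. A difference is given in SD units of that score with its standard error, and the adjusted p is limma's after Benjamini-Hochberg adjustment over all of these regions. The Irf windows held 29 of them, among which Irf8 had only its start site. In Ezh2 against GFP, 2 of 29 rose (6.9%, against 1.59% of all regions) and 1 fell (3.45%, against 2.84%). In Ezh2-Y726D against GFP, 0 of 29 rose (3.55% of all) and 2 fell (6.9%, against 4.65%), with 4 higher and 2 lower at an unadjusted p under 0.05 in limma. In Ezh2 against Ezh2-Y726D, 3 rose (10.3%, against 7.0%) and 2 fell (6.9%, against 6.96%). The median difference of the 29 was −0.0419, 0.0493 and −0.0613 in these comparisons, against 0.01, −0.0139 and 0.0228 over all regions.

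The clearest change with Ezh2 lay beyond the end of Irf4. The region chr13:30785758-30787391, 37.3 kb from the start site, had percentiles of 24.9, 24 and 36.4 with GFP, 61.9, 63.7 and 63.6 with Ezh2, and 25.6 and 35.0 with Ezh2-Y726D. Only the Ezh2 libraries were high, and GFP and Ezh2-Y726D overlapped. It rose by 0.99 ± 0.15 (SE) with Ezh2 against GFP (limma adjusted p = 0.0107) and was higher than in Ezh2-Y726D by 0.944 ± 0.168 (limma adjusted p = 0.00627). Against GFP the call held in 13 of 13 other settings (adjusted p up to 0.0457), and against Ezh2-Y726D it was lost without Ezh2-Y726D replicate 1 (adjusted p = 0.0729). The start-site table gives no start within 1 kb of this region.

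In Irf2, a region at 78.9 kb inside the gene (chr8:46818080-46819178) stood at 53.6, 51.7 and 58.7 with GFP, 71.1, 79.8 and 85.0 with Ezh2, and 57.5 and 67.6 with Ezh2-Y726D, and it rose with Ezh2 against GFP by 0.829 ± 0.178 (limma adjusted p = 0.0323). Another at 41.5 kb (chr8:46780835-46781707) went the other way, at 58.6, 67.5 and 81.2 with GFP, 23.3, 40.4 and 38.3 with Ezh2, and 66.9 and 75.1 with Ezh2-Y726D. Ezh2 alone was low there, with a difference of −1.13 ± 0.212 from GFP (limma adjusted p = 0.0212) and of −1.12 ± 0.237 from Ezh2-Y726D (limma adjusted p = 0.0133). The rise was not called without GFP replicate 1, 2 or 3 or Ezh2 replicate 2 or 3 (limma adjusted p of 0.0792, 0.0991, 0.0786, 0.0763 and 0.0973). The fall against GFP was not called without GFP replicate 2 or 3 or Ezh2 replicate 1 or 3 (0.0636, 0.0603, 0.0671 and 0.054), nor that against Ezh2-Y726D without Ezh2-Y726D replicate 1 or 2 (0.0515 and 0.0944). When peaks were ranked by their −log10 p-value, the difference from Ezh2-Y726D was −0.78 (adjusted p = 0.0661), and no region of the Irf windows was then called lower in Ezh2 than in Ezh2-Y726D.

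Irf5 and Irf1 each had a flanking region that was lower with Ezh2-Y726D. At chr6:29517124-29517710, −9.21 kb from the Irf5 start and within Gm26627, the percentiles were 75.5, 75.9 and 80.1 with GFP, 79.3, 75.8 and 83.0 with Ezh2, and 53.1 and 37.8 with Ezh2-Y726D. Only the Ezh2-Y726D libraries were low. The region fell by 1.07 ± 0.193 against GFP (limma adjusted p = 0.0118) and was 1.14 ± 0.193 higher in Ezh2 than in Ezh2-Y726D (adjusted p = 0.0052), and both calls were lost without Ezh2-Y726D replicate 2 (adjusted p = 0.094 and 0.054). At chr11:53793888-53795694, 24.8 kb from the Irf1 start and within Gm12216, they were 69.2, 50.3 and 53.2 with GFP, 67.8, 72.1 and 77.7 with Ezh2, and 12.5 and 30.7 with Ezh2-Y726D. The region fell by 1.04 ± 0.247 against GFP (limma adjusted p = 0.0312) and was 1.52 ± 0.247 higher in Ezh2 than in Ezh2-Y726D (adjusted p = 0.0043). The fall was not called without GFP replicate 1 or 2 or either Ezh2-Y726D replicate (adjusted p of 0.0687, 0.0528, 0.249 and 0.0632), and the other call was lost without Ezh2-Y726D replicate 1 (0.0534). With −log10 q of at least 5 this Irf1 region had no fitted value. The next region, chr11:53795976-53797223 at 26.6 kb, went the other way. Its percentiles were 1.01, 7.61 and 21.5 with GFP and 72.3 and 64.1 with Ezh2-Y726D. In Ezh2 replicate 1 it had no peak, and in replicates 2 and 3 it stood at 2.03 and 2.63. It therefore lay outside the limma fit over regions with a peak in all 8 lists, and it was not called gained or lost.

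The Irf1 start region (chr11:53769363-53770877), which holds the GAS match printed above, was the only start region called. Its percentiles were 84.6, 81.3 and 77.2 with GFP, 70.3, 77.9 and 72.7 with Ezh2, and 90.8 and 89.3 with Ezh2-Y726D. Ezh2 minus Ezh2-Y726D was −0.769 ± 0.196 (limma adjusted p = 0.0289). When peaks were ranked by their −log10 p-value instead of fold, that difference was −0.0742 (adjusted p = 0.703), and it was not called without Ezh2 replicate 1 or 3 or either Ezh2-Y726D replicate (0.081, 0.0725, 0.153 and 0.099).

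**Figure D4:**
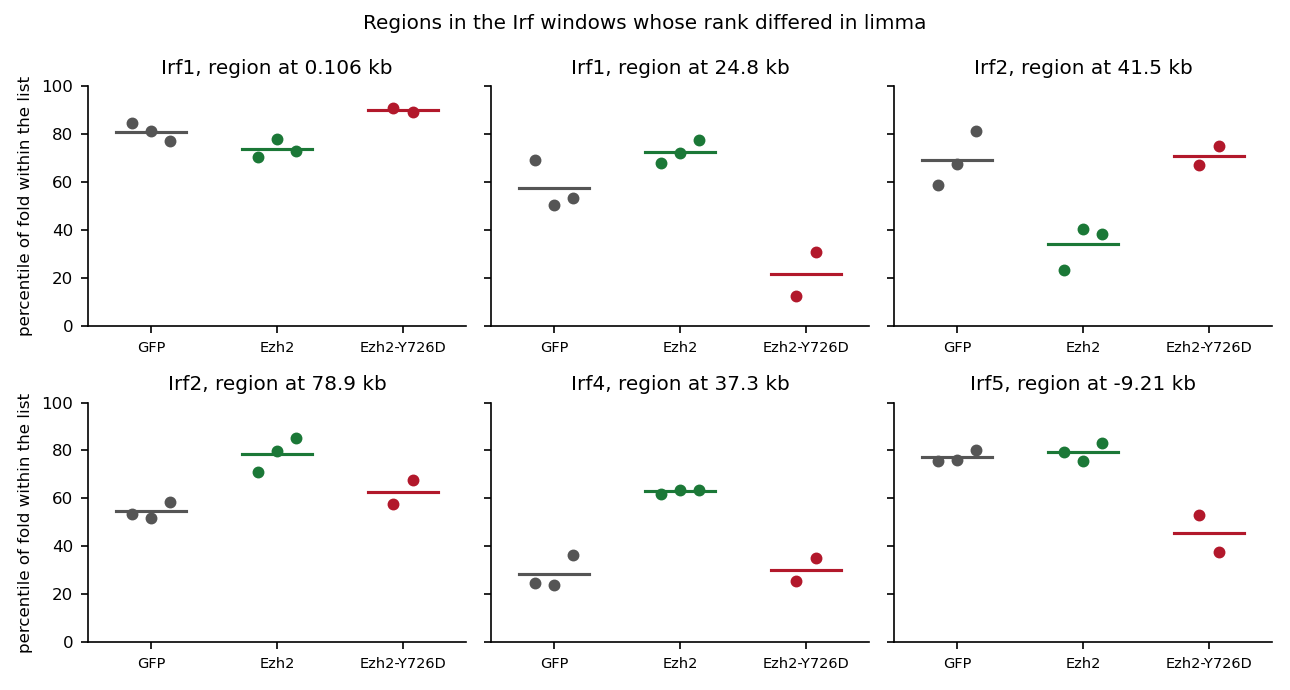
Percentile of fold within the list (vertical axis, 0 to 100) of the 6 regions called in any comparison, named by gene and distance of the region's middle from the first start site; each point is a library and each line a group mean. At Irf4 the Ezh2 points lie from 61.9 to 63.7 and all others from 24 to 36.4.

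The rest of the interferon pathway was described at its gene ends, within 1 kb of either end of a gene, over a list of 36 genes. Peaks were found at 32, 33 and 34 of them with GFP, 35, 35 and 35 with Ezh2, and 31 and 31 with Ezh2-Y726D. Ezh2-Y726D minus GFP was −2.0 genes (exact permutation p = 0.2) and Ezh2 minus Ezh2-Y726D was 4.0 (exact permutation p = 0.1). Ezh2 minus GFP was 2.0 (exact permutation p = 0.1), with every Ezh2 library above every GFP library. With gene ends within 3 kb that difference was 0.667 (exact permutation p = 0.4). The share of all genes that separated in this way was not counted. Isg15, a ubiquitin-like interferon target, was the only gene with no peak in any list.

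By rank, 31 pathway genes could be tested. In Ezh2 against GFP, limma called 0 of them (1.59% of all regions rose and 2.84% fell), with 0 higher and 3 lower at an unadjusted p under 0.05. In Ezh2-Y726D against GFP it called 0 higher (3.55% of all) and 1 lower (4.65% of all), with 2 higher and 3 lower at an unadjusted p under 0.05. The 1 was Sting1, the adaptor that relays the signal of cytosolic DNA. Sting1 stood at 62.8, 73.8 and 68.9 with GFP, 79.9, 71.6 and 77.0 with Ezh2, and 48.3 and 20.6 with Ezh2-Y726D, and fell by 1.04 ± 0.254 (limma adjusted p = 0.0338). That call was lost without any 1 of the GFP replicates 1, 2 and 3 and without Ezh2-Y726D replicate 2 (adjusted p of 0.0563, 0.0881, 0.0651 and 0.246). In any comparison, Sting1 had no fitted value with lists of equal length or with −log10 q of at least 5.

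In Ezh2 against Ezh2-Y726D, 3 of the 31 rose (7.0% of all regions did) and 1 fell (6.96% of all), with 4 higher and 6 lower at an unadjusted p under 0.05 in limma. Sting1 was higher by 1.31 ± 0.254 (limma adjusted p = 0.00924), the antiviral GTPase gene Mx1 by 0.92 ± 0.212 (0.0191) and the chemokine gene Cxcl10 by 0.661 ± 0.188 (0.043). Ifngr1, a subunit of the interferon gamma receptor, differed by −0.725 ± 0.184 (0.0279). Sting1 and Mx1 were not called without Ezh2-Y726D replicate 2 (adjusted p = 0.0851 and 0.16), and Mx1 was also not called without Ezh2 replicate 1 or 2 (0.0513 and 0.0506). Cxcl10 and Ifngr1 were each lost without either Ezh2-Y726D replicate (for Cxcl10 0.0695 and 0.285, for Ifngr1 0.112 and 0.133) or any Ezh2 replicate (for Cxcl10 0.0767, 0.105 and 0.0829, for Ifngr1 0.0689, 0.0614 and 0.0649), and Cxcl10 also without any GFP replicate (0.0564, 0.053 and 0.0542). Ifngr1 was also lost when peaks were ranked by −log10 p (adjusted p = 0.196), and Cxcl10 over regions in at least 5 lists (adjusted p = 0.064). Gene-end regions of Ikbke, a kinase that phosphorylates Irf3 and Irf7, and of the interferon targets Oas1a, Oas3 and Ifi44 had a peak in every Ezh2 library and in no Ezh2-Y726D library. These were 4 of the 36 genes, against 8.96% of all regions, and 0 were lost, against 6.14%. The shares are not alike, since each gene was read at its gene-end region with a peak in the most lists. For 31 of the 36 that region had a peak in all 8 lists and could be neither gained nor lost, against 36.6% of all regions. The kinase genes Jak1, Jak2 and Tyk2 had peaks in all 8 lists, and none was called in any comparison.

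Markers of other cells were read in the same way, since bulk lists cannot tell fewer cells of a type from less open chromatin per cell. RGC genes such as Rbpms, Thy1 and Pou4f2 had a peak in 18 to 19 of 20 cases in every library. The list of 20 microglia and macrophage markers reached 13, 13 and 16 genes with GFP, 16, 14 and 15 with Ezh2, and 4 and 5 with Ezh2-Y726D. Cx3cr1, C1qb, Tyrobp, Ptprc, Cd68, Ctss and Ly86, 7 of the list, had one in every GFP and Ezh2 library and in no Ezh2-Y726D library, and Aif1, Fcrls and Gpr34 had none in any list. P2ry12, a purine receptor gene of microglia, had one in every GFP and Ezh2-Y726D library and in no Ezh2 library, and Csf1r, the receptor gene for their survival factor, only in the Ezh2 libraries.

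The 20 T cell markers counted 18, 18 and 20 with GFP, 20 in each Ezh2 library, and 10 and 9 with Ezh2-Y726D, and 8 (Cd3g, Cd8a, Cd8b1, Zap70, Lat, Cd2, Cd28 and Il7r) lacked one only in both Ezh2-Y726D libraries. CD90.2, the antigen used for the sort, is also carried by mouse T cells. Ezh2-Y726D minus GFP was −9.5 genes for microglia and macrophages and −9.17 for T cells (exact permutation p = 0.1 for each). B cell genes had a peak in 7 or 8 of 15 cases in every library, Müller glia genes in 13 of 15, rod genes in 11 to 14 of 15 and endothelial genes in 6 to 9 of 15. Of the B cell genes, 1 had a peak in every library except those of Ezh2-Y726D. For the RGC, Müller glia, rod and endothelial lists that number was 0. The share of all genes with this pattern at their ends was not counted. The lower counts of microglia and macrophage markers and of T cell markers thus moved with the empty flanks of Irf8. The counts at Irf2 and Irf5 were lower in the same Ezh2-Y726D libraries. The part of these marker counts in the results at Irf8, Irf2 and Irf5 was not tested.

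**Figure D5:**
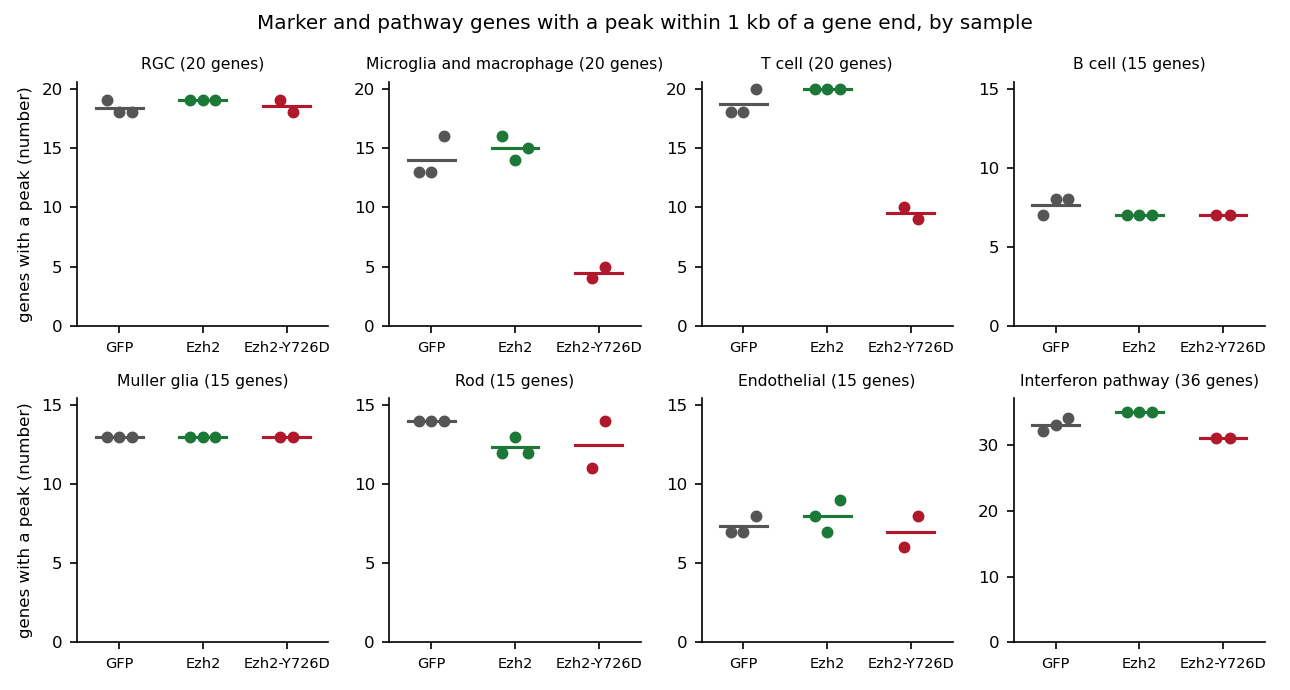
Number of genes of each list with a peak within 1 kb of either gene end (vertical axis) in the GFP, Ezh2 and Ezh2-Y726D libraries; each point is a library and each line a group mean. The microglia and macrophage list drops to 4 and 5 and the T cell list to 10 and 9 with Ezh2-Y726D, whereas the RGC list stays at 18 to 19.

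The genes whose number of peaks ran most like that of Irf8 over the 8 samples, among 13540 protein-coding genes with at least 5 peaks in 1 list, were Abhd3, Mrpl22 and Phactr4 (Pearson r = 0.991 for each). Phactr4 had 8, 8 and 9 peaks with GFP, 9, 8 and 9 with Ezh2, and 6 in both Ezh2-Y726D libraries. For Irf4 they were Gnb1 (r = 0.905), Kat2a (0.896) and Bcl6b (0.885). Gnb1 had 11, 11 and 10, then 11, 14 and 12, then 12 and 11, without a separation of the groups. These correlations are a description over samples that share their groups and depth and carry no p.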

How the data were processed

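ATAC-seq peaks of 8 samples were analysed, 3 GFP, 3 Ezh2 and 2 Ezh2-Y726D, grouped and numbered by their titles. The peak names of Ezh2-Y726D replicates 1 and 2 carry the numbers 2 and 3, and the replicate block followed the titles. Per the labels, the authors deposited 1 narrowPeak list for each library, with no pooled list. The submitters' processing notes name cutadapt, Bowtie2, SAMtools, Picard, MACS2 and deepTools without versions and the build GRCm38; the peak threshold is not given in the sources used here, and the smallest −log10 q of a list was 1.31 to 1.38. The deposited fold is a ratio of summit pileup to the library's own local background. The −log10 p-value and the −log10 q-value, as deposited, come from the peak caller within a library and served to rank or filter. The deposited score (a rescaled −log10 q) and summit position were left out. The lists hold no read numbers, so depth is unknown and no intervals for counting error were given. A longer list can hold more low peaks, so lists cut to equal length were an alternative. Positions count from 1.

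Windows, merged regions and their calls are defined in the report. A region with several peaks of 1 list took the highest fold. Gene positions and promoter sequences came from RefSeq on GRCm38.p6. The start-site table lacked some list genes, so lists were read at both gene ends, where all genes had a position (older symbols were matched for Rigi). Single values were compared with two-sided exact permutation tests over samples, and region ranks with limma 3.58.1 in R 4.3.3 (all 8 samples in 1 fit, adjusted p under 0.05). Python 3.11.15, numpy 2.4.6, pandas 2.3.3 and scipy 1.17.1 were used. Merging, the permutation test and the limma fit were checked on simulated data. Named were all 8 members, every called, gained or lost region in their windows, their start regions, neighbouring genes with an end within 1 kb of such a region, up to 6 pathway genes per comparison, and for Irf4 and Irf8 the 3 genes most alike in number of peaks; the other marker genes and Phrf1 and Ipo4 were named after their values were seen. The Irf1 region at 26.6 kb was also named after its values were seen. Alternatives were other flanks (none and 60 kb), −log10 q of at least 5, equal lists, at least 0.5 of a peak in the window, Irf5 counted with Irf4 and Irf8, ranking by −log10 p, regions in at least 5 lists, gene ends within 3 kb, a replicate block and leaving out each library. The values of 1 pathway gene are not reported here. The members and lists were chosen with earlier results of these data known.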

Additional observations from a re-analysis of the deposited data

How the results depend on the processing

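Leaving out each library kept the direction of the differences for all 8 windows, for Irf4 and Irf8, for the other 6 and for the ratio; single windows were not refitted this way. In Ezh2-Y726D against GFP it ranged from −18.7 to −13.7 for all 8 windows, from −6.0 to −5.0 for Irf4 and Irf8 and from −0.0961 to −0.0254 for their ratio to the other 6. Calls by rank ranged from 1 to 4 in Ezh2 against GFP, from 0 to 3 in Ezh2-Y726D against GFP and from 1 to 6 in Ezh2 against Ezh2-Y726D, and regions gained and lost from 4 to 8, from 12 to 19 and from 21 to 26. The rule for gained and lost is easier to meet with a library fewer, and the shares of all regions are not given for these settings. Of the 10 calls by rank, 1 held in every alternative.

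With the genes alone and no flank, the differences for Irf4 and Irf8 reversed to −0.667 peaks in Ezh2 against GFP, 0.833 in Ezh2-Y726D against GFP and −1.5 in Ezh2 against Ezh2-Y726D, and those of the ratio to −0.0462, 0.113 and −0.159 in this order; 9 of the 12 lost regions lie outside the genes. The differences of the other 6 windows kept their direction without flanks, at 2.0, −4.67 and 6.67 peaks in the same order. With Irf5 counted among the leukocyte genes the ratio reversed to −0.0251 in Ezh2 against GFP. Without flanks, calls by rank numbered 0 of 16 in Ezh2-Y726D against GFP and 2 of 16 in Ezh2 against Ezh2-Y726D. Regions gained and lost in the 3 comparisons were then 0, 3 (0 gained, 3 lost) and 6 (5 gained, 1 lost) of 40. With 60 kb flanks, calls by rank were 5 and 8 of 61 in the 2 comparisons with Ezh2-Y726D. Over all regions, 5702 and 9699 of 69493 were called. Regions gained and lost were then 24 (1 gained, 23 lost) and 38 (34 gained, 4 lost) of 176. Of all regions, 4.77% were gained and 4.72% lost in Ezh2-Y726D against GFP. In Ezh2 against Ezh2-Y726D these shares were 8.96% and 6.14%. The shares of all regions do not change with the flank. With regions in at least 5 lists, where libraries without a peak were given the shared lowest rank, 5, 12 (2 higher, 10 lower) and 16 (12 higher, 4 lower) were called of 56, against 3, 2 and 5 of 29. Calls also rose over all regions, to 10704, 14286 and 23496 of 109942, against 3083, 5702 and 9699 of 69493. With −log10 q of at least 5, calls by rank in Ezh2-Y726D against GFP were 1 of 26, against 3957 of 55513 over all regions. Regions gained and lost were then 1 of 68 in Ezh2 against GFP and 6 of 68 in Ezh2-Y726D against GFP. The shares of all regions gained and lost at this setting are not given.

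Among the lists, small differences reversed: RGC genes −0.5 with equal lists and −0.333 without Ezh2-Y726D replicate 1 (Ezh2-Y726D against GFP) and −0.167 within 3 kb (Ezh2 against Ezh2-Y726D), B cell genes 0.667 within 3 kb (Ezh2 against GFP), rod genes 0.333 with −log10 q of at least 5 and from −1.67 to 1.33 without 1 library (the latter without Ezh2-Y726D replicate 2; Ezh2 against Ezh2-Y726D), and endothelial genes from −1.33 to 0.667 without 1 library (the latter without Ezh2-Y726D replicate 1; Ezh2-Y726D against GFP). The cause was not tested. With a replicate block 3, 1 and 5 regions were called by rank in the 3 comparisons, and not called were the Irf1 region at 24.8 kb in Ezh2-Y726D against GFP (adjusted p = 0.0662) and the Irf1 start region in Ezh2 against Ezh2-Y726D (0.0675), where a region not called without the block was then called. Of the pathway, Sting1 against GFP (0.0607), Ifngr1 (0.0658) and Cxcl10 (0.0806) were not called. The deviations of same-numbered GFP and Ezh2 libraries correlated at 0.00545, 0.0326 and 0.0478, and those of other-numbered ones at −0.0482 to 0.016. For each GFP library the same-numbered Ezh2 library had the highest value. All values were small, so they do not settle whether the numbers pair the samples. With the numbers in the Ezh2-Y726D peak names instead of the titles, Ezh2-Y726D libraries correlated with same-numbered GFP libraries at 0.0151 and 0.0461. Depth is unknown, groups hold 2 or 3 samples, and no exact test here could reach 0.05.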
